A study of Mus musculus with 2 samples.

Results

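Agrp neurons of the mouse arcuate nucleus and median eminence were followed in single-cell RNA counts, and 57 such neurons were found among 4600 cell barcodes. They were chosen by their own RNA. A cell had to hold at least 300 genes, at most 20% mitochondrial UMIs (unique molecular identifiers, each standing for 1 captured RNA molecule) and at least 2 of the neuron genes Snap25, Syt1, Stmn2, Stmn3, Elavl4, Tubb3 and Snhg11. It then needed 3 or more UMIs of Agrp, or at least 1 UMI of Agrp with 3 or more of Npy. The Irx3/5dHet library gave 42 Agrp neurons among 720 neurons and 1484 cells that passed the limits, and the WT library gave 15 among 911 neurons and 2405 cells. The neurons outside the rule, 678 in Irx3/5dHet and 896 in WT, are called other neurons.

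The Irx3/5dHet mice carried the genotype labelled Irx3/5+/-, heterozygous for Irx3 and Irx5, a neighbouring pair of homeobox transcription factor genes. The WT mice were wild type. All were of the outbred CD-1 strain, 7 to 8 weeks old, and no treatment is labelled. The Irx3/5dHet library pooled the dissected tissue of 5 mice and the WT library that of 7, so each genotype was 1 sample and no value below has a replicate check. The labels give no sex, and the sources used here do not say which stretch of either gene was deleted. Tissue was dissociated, live cells were sorted, and RNA was read from its 3' end by Drop-seq, which pairs each cell with a barcoded bead in a droplet.

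Agrp neurons lie in the arcuate nucleus and drive feeding when they fire. They release agouti-related peptide (Agrp), which blocks the melanocortin receptors that Pomc products activate, neuropeptide Y (Npy), and the inhibitory transmitter GABA. Leptin and insulin restrain them, ghrelin excites them, and fasting raises their Agrp and Npy RNA.

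The stretches of DNA that precede the start sites of peptide genes found in these cells are shown because peptide RNA both chose the cells and later splits them. Sequences are RefSeq's for GRCm38.p6, 5′ to 3′ on the gene's strand, and capitals mark a cAMP response element, TGACGTCA. The Npy stretch (chr6:49822460-49822709, plus strand) covers the 250 bases upstream of the start, and the Sst stretch (chr16:23890874-23890903, minus strand) covers the 30 bases around the element, which begins 48 bases before the start (position -48).
Npy: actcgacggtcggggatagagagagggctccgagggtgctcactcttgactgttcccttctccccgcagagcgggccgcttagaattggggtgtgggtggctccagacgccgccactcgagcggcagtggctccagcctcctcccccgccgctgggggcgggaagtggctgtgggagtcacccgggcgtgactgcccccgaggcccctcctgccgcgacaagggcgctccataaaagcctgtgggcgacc
Sst: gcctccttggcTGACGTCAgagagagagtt
The element was searched on both strands of the 250 bases before each start and was found in 508 of 32851 promoters (1.55%). Searched the same way, 4 other motifs were in neither the Npy nor the Sst stretch of 250 bases. These were the homeobox core TAATTA, held by 4.84% of promoters, the E-box CACGTG, held by 6.02%, the STAT motif TTCNNNGAA, held by 7.02%, and the TATA box written as TATAAA, held by 12.4%. A match describes letters, not a bound site. The Agrp gene itself (ENSMUSG00000005705) lies on chromosome 8, from 105566698 to 105637393 on the minus strand in GRCm38, an annotated span that overlaps other genes, and the sources used here do not say whether strand was used in counting.

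Some barcodes were near-identical to each other. In Irx3/5dHet, 87 families of such barcodes held 220 of the filtered cells, and in WT 124 families held 323. Each library had 4 Agrp neurons in such families, 2 families with 2 Agrp neurons each. With each family merged into 1 cell, Irx3/5dHet held 41 Agrp neurons and WT 13. The libraries shared 3 barcodes, none of an Agrp neuron. Doublets were not called, and RNA of other cell types in the Agrp neurons is given below. The Irx3/5dHet Agrp neurons held 245517 UMIs and the WT ones 94487, with a median of 5988.5 UMIs and 2784 genes per cell against 3502 UMIs and 2082 genes. The deepest WT Agrp neurons held 17968 and 16856 of these UMIs and weigh heavily in the WT sums. Neither was in the authors' merged table, which held 13 WT and 41 Irx3/5dHet Agrp neurons. The deepest Irx3/5dHet Agrp neuron, of 16006 UMIs, was also absent from it. Other neurons were shallower, with medians of 1792 UMIs in Irx3/5dHet and 1774.5 in WT.

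The targeted genes could not be read in these cells. Irx3 and Irx5 each had 0 UMIs in the Agrp neurons of both libraries, which allows up to 12.2 counts per 1000000 UMIs (CPM) in Irx3/5dHet and 31.8 CPM in WT, the level that 3 UMIs would give. Over all filtered cells Irx3 had 15 UMIs in Irx3/5dHet and 31 in WT, and Irx5 had 6 and 16. This was 5.24 CPM (95% Poisson interval 2.93 to 8.64) against 7.24 CPM (4.92 to 10.3) for Irx3, intervals that overlap, and 2.10 CPM (0.769 to 4.56) against 3.74 CPM (2.14 to 6.07) for Irx5. These counts check neither label. All intervals cover counting error only.

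Agrp neurons made up 5.83% of neurons in Irx3/5dHet (42 of 720, exact Clopper-Pearson interval 4.24 to 7.80) and 1.65% in WT (15 of 911, 0.924 to 2.70). As a share of all filtered cells they were 2.83% in Irx3/5dHet and 0.624% in WT. With families merged the shares of neurons were 6.54% (41 of 627, 4.73 to 8.77) and 1.59% (13 of 818, 0.849 to 2.70). The intervals of the libraries do not overlap in either count, but each rests on 1 pool, so dissection, dissociation, sorting and genotype cannot be told apart. Limits on depth moved neither share outside its interval: cells of at least 1000 UMIs gave 6.91% in Irx3/5dHet and 2.15% in WT.

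Agrp UMIs per Agrp neuron ran from 1 through a median of 22 to 166 in Irx3/5dHet, and from 3 through 16 to 66 in WT. Npy UMIs ran from 0 through 68 to 491 in Irx3/5dHet and from 0 through 41 to 155 in WT. The cells of the libraries overlap widely for both genes. Summed over cells, Agrp was at 5283 CPM in Irx3/5dHet (1297 UMIs) and 3482 CPM in WT (329 UMIs), and Npy was at 15681 CPM (3850 UMIs) and 7959 CPM (752 UMIs). The log2 ratio of Irx3/5dHet over WT was 0.60 (exact conditional binomial interval 0.43 to 0.78) for Agrp and 0.98 (0.87 to 1.09) for Npy. Both genes chose the cells, so these values are a description. Within the Irx3/5dHet library Agrp and Npy CPM had a Spearman correlation of 0.68 over 42 cells, and within WT of 0.40 over 15, each over cells of 1 library.

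**Figure D1:**
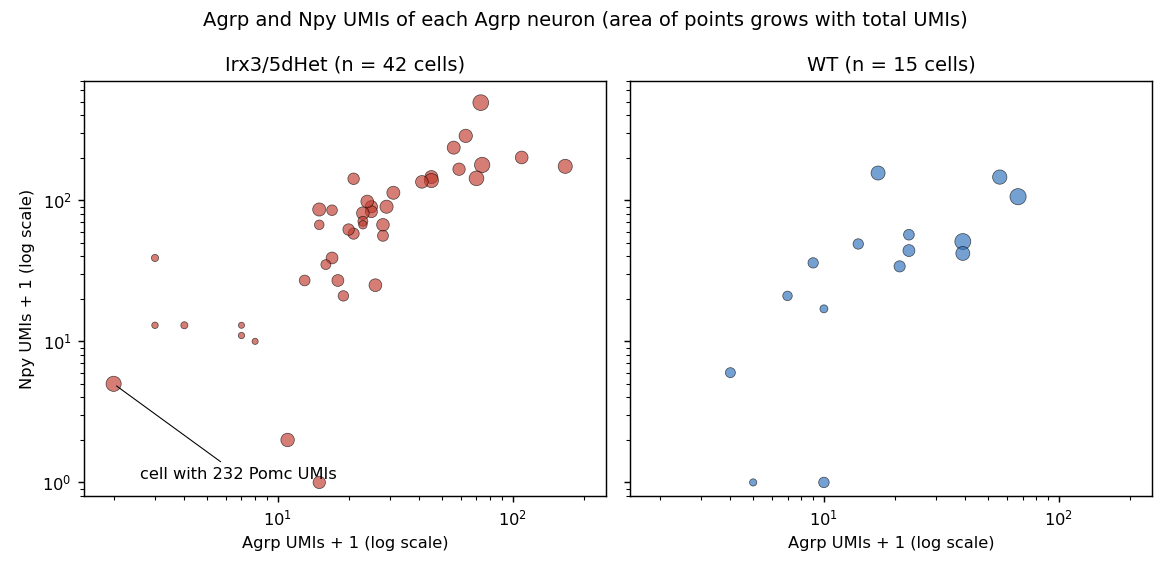
Agrp UMIs (x) and Npy UMIs (y) of each Agrp neuron, each plus 1 on log axes, for 42 Irx3/5dHet cells at left and 15 WT cells at right, with the area of a point growing with the cell's total UMIs. Most points lie along a band in which Npy grows with Agrp, and 1 Irx3/5dHet cell with 232 Pomc UMIs, 1 Agrp UMI and 4 Npy UMIs lies at the lower left.

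The rule's edge was thinly filled on its inner side. In Irx3/5dHet, 39 Agrp neurons had 3 or more Agrp UMIs and 3 entered by 1 or 2 Agrp UMIs with at least 3 of Npy, while all 15 WT cells had 3 or more Agrp UMIs. Just outside stood 23 Irx3/5dHet and 6 WT neurons with 1 or 2 Agrp UMIs and under 3 of Npy. In those cells Otp had 5 and 2 UMIs, Cited1 27 and 5, and Serpina3n 6 and 0. Acvr1c and Npy2r had 0 there in both libraries. A further 4 neurons in each library had at least 3 Npy UMIs and no Agrp. Agrp neurons held 94.3% of all Agrp UMIs of the Irx3/5dHet library and 91.9% of those of WT.

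One Irx3/5dHet cell at that edge had the RNA of a Pomc neuron. It held 232 UMIs of Pomc, the precursor of the melanocortins, and 448 of Cartpt, a peptide that Pomc neurons carry in mice, beside 1 of Agrp, 4 of Npy, 1 of Otp and 0 of Acvr1c. Its 13868 UMIs and 4606 genes made it one of the deepest cells, and it held 93.2% of the Pomc and 73.2% of the Cartpt UMIs of the Irx3/5dHet Agrp neurons. It meets the rule and stays among the 57, and the Pomc, Cartpt and Calb1 values are also given without it.

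The 3 markers of the label that the rule did not use were all higher in Agrp neurons than in other neurons of the same library. Otp, a homeobox factor of hypothalamic neurons, had 77 UMIs in 31 of 42 Irx3/5dHet cells and 23 UMIs in 9 of 15 WT cells. This was 314 CPM in Irx3/5dHet and 243 CPM in WT Agrp neurons, against 24.4 and 11.2 CPM in other neurons, log2 ratios of 3.68 (3.13 to 4.26) and 4.45 (3.56 to 5.34). Serpina3n, a secreted protease inhibitor with near-identical relatives whose reads may be split, was at 635 and 381 CPM, against 58.4 and 39.0 CPM in other neurons, log2 ratios of 3.44 and 3.30. Acvr1c, the activin receptor ALK7, was at 155 CPM (38 UMIs in 17 cells) and 52.9 CPM (5 UMIs in 4 cells), against 6.23 and 3.72 CPM, log2 ratios of 4.59 and 3.88. The name Agrp neurons is therefore kept for these cells.

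These genes were read together in single cells. Of Otp, Acvr1c, Serpina3n, Npy2r and Cited1, a set completed after their values were seen, 3 or more were found in 33 of 42 Irx3/5dHet Agrp neurons (78.6%) and 9 of 15 WT ones (60.0%), against 5 of 678 (0.737%) and 7 of 896 (0.781%) other neurons. None of the 5 was found in 1 Agrp neuron of each library. Agrp neurons are deeper, so each cell was also thinned to 1000 UMIs. Otp was then found in 12 of 36 Irx3/5dHet Agrp neurons (33.3%) against 10 of 485 other neurons (2.06%), and in 1 of 14 WT ones (7.14%) against 8 of 637 (1.26%). In cells with no neuron marker the thinned count was 0 of 210 in Irx3/5dHet and 0 of 481 in WT, which allows shares of up to 1.74% and 0.764% by the exact interval. In WT, the thinned intervals of Agrp and other neurons overlap for Otp, Serpina3n and Acvr1c, but not for Npy2r and Cited1. In Irx3/5dHet they overlap for none of the 5. The count of cells with 3 or more of the genes was not repeated in thinned cells, so it still holds the difference in depth.

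RNA of other cell types was present at lower levels than in the cells outside the neuron limits. The 9 oligodendrocyte markers summed to 212 CPM in Irx3/5dHet and 275 CPM in WT Agrp neurons, against 27522 and 27419 CPM in cells outside the neuron limits. The 12 astrocyte and tanycyte markers summed to 253 and 286 CPM, against 8382 and 7780 CPM there, with Aqp4, Gja1, Rax and Crym at 0. Microglia markers gave 1 UMI in Irx3/5dHet and 0 in WT, and vascular markers 11 and 3 UMIs. Ependymal markers summed to 151 and 233 CPM, against 2183 and 2011 CPM in cells outside the neuron limits, and pars tuberalis markers to 305 and 254 CPM, against 4510 and 2891 CPM. Most of the pars tuberalis sum was Chga, at 265 and 180 CPM. Other neurons also hold Chga, at 1088 and 1680 CPM, so that sum does not show RNA of pars tuberalis cells. Haemoglobin genes, markers of red blood cells, summed to 73.3 and 169 CPM, against 173 and 419 CPM. Oligodendrocyte precursor markers gave 0 UMIs in Irx3/5dHet and 12 in WT, 10 of them in 1 cell, which is 127 CPM in WT against 1123 CPM in cells outside the neuron limits. Without cells that held 2 or more markers of another type, the counts over other neurons given next were 143 higher and 478 lower genes.

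Across the transcriptome, Agrp neurons were compared with other neurons inside each library, among 10104 genes with at least 20 UMIs over both kinds of neuron in each library. At least 2-fold higher in both libraries were 148 genes (1.46%), Agrp and Npy, which chose the cells, among them, and at least 2-fold lower were 601 (5.95%). Of the lower genes, 429 had 0 UMIs in the Agrp neurons of a library, and 222 lower genes are left when such a gene is set to 3 UMIs there. The median log2 ratio of all genes was -0.09 in Irx3/5dHet and -0.00 in WT. Scaling by the median ratio of genes in place of total UMIs lowers every ratio by 0.07 in Irx3/5dHet and 0.29 in WT. Beside them, 15 genes are named for the highest ratios and 10 for the lowest, taking the library nearer 0. Of these, Acvr1c, Filip1, Krt90 and Nr5a2 hold under 20 UMIs over the neurons of a library and stand outside the counts.

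**Figure D2:**
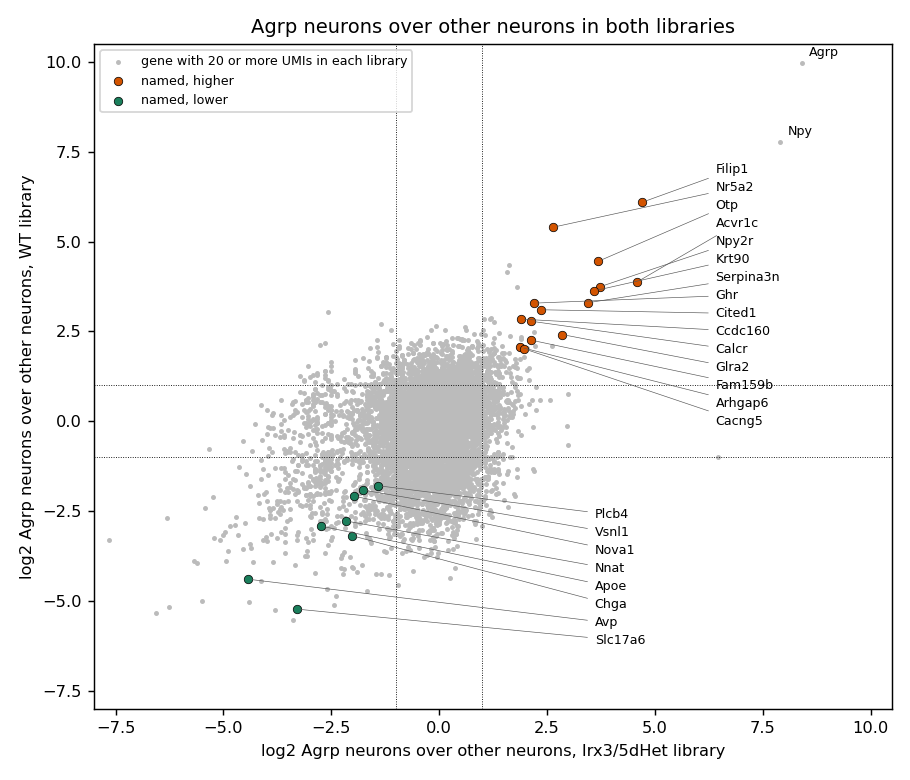
Log2 ratio of summed CPM in Agrp neurons over other neurons, in the Irx3/5dHet library (x) and the WT library (y), with a grey point for each of 10104 genes and 0.5 UMI added to each sum. Orange and green points are the 15 higher genes and 8 of the 10 lower genes chosen by rank, of which Acvr1c, Filip1, Krt90 and Nr5a2 are not among the 10104, and Agrp and Npy, which chose the cells, stand at the upper right.

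Other peptide genes were sparse in Agrp neurons, except Sst and, in Irx3/5dHet, Cartpt. Cartpt was below other neurons in both libraries, with log2 ratios of -0.52 in Irx3/5dHet and -2.68 in WT. Of its 612 Irx3/5dHet UMIs, 448 came from the 1 cell rich in Pomc, and WT held 24. Of 25 peptide genes in the tables, 15 had any UMI in these cells, and the other 10 had none in either library: Trh, Pdyn, Tac1, Kiss1, Nts, Hcrt, Crh, Nmu, Nms and Bdnf. Tac1, the substance P precursor, had 337 UMIs in Irx3/5dHet and 456 in WT other neurons, and was at least 15.6-fold lower in Irx3/5dHet and at least 6.67-fold lower in WT Agrp neurons, counting the 0 as 3 UMIs per library. Avp, the vasopressin precursor, was at 118 CPM in Irx3/5dHet and 95.2 CPM in WT Agrp neurons, against 2573 and 2115 CPM in other neurons, log2 ratios of -4.42 and -4.39. Of 21 peptide genes tested, none was 2-fold higher in both libraries and 16 were 2-fold lower, beside 1.46% and 5.95% of all genes. With genes at 0 set to 3 UMIs, 9 were lower. The median log2 ratio was -3.81 in Irx3/5dHet and -3.15 in WT, and -2.36 and -1.34 at that bound.

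Sst, the precursor of somatostatin, an inhibitory peptide, was concentrated in a subset of Agrp neurons in both libraries. It was found in 14 of 42 Irx3/5dHet cells (574 UMIs, 2338 CPM) and 7 of 15 WT cells (137 UMIs, 1450 CPM), with 173 and 52 UMIs in the richest cell. Other neurons held 660 CPM in Irx3/5dHet and 878 CPM in WT. At least 3 Sst UMIs were found in 12 Irx3/5dHet and 5 WT cells, or 12 and 4 with barcode families merged and the Pomc-rich cell left out, where 14 and 6 cells held any Sst. At 1000 UMIs per cell, Sst was found in 33.3% of Irx3/5dHet and 35.7% of WT Agrp neurons, against 8.04% and 6.12% of other neurons and 3.81% and 1.87% of cells with no neuron marker. The share in Agrp neurons thus stood well above that in cells which should lack the gene.

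**Figure D3:**
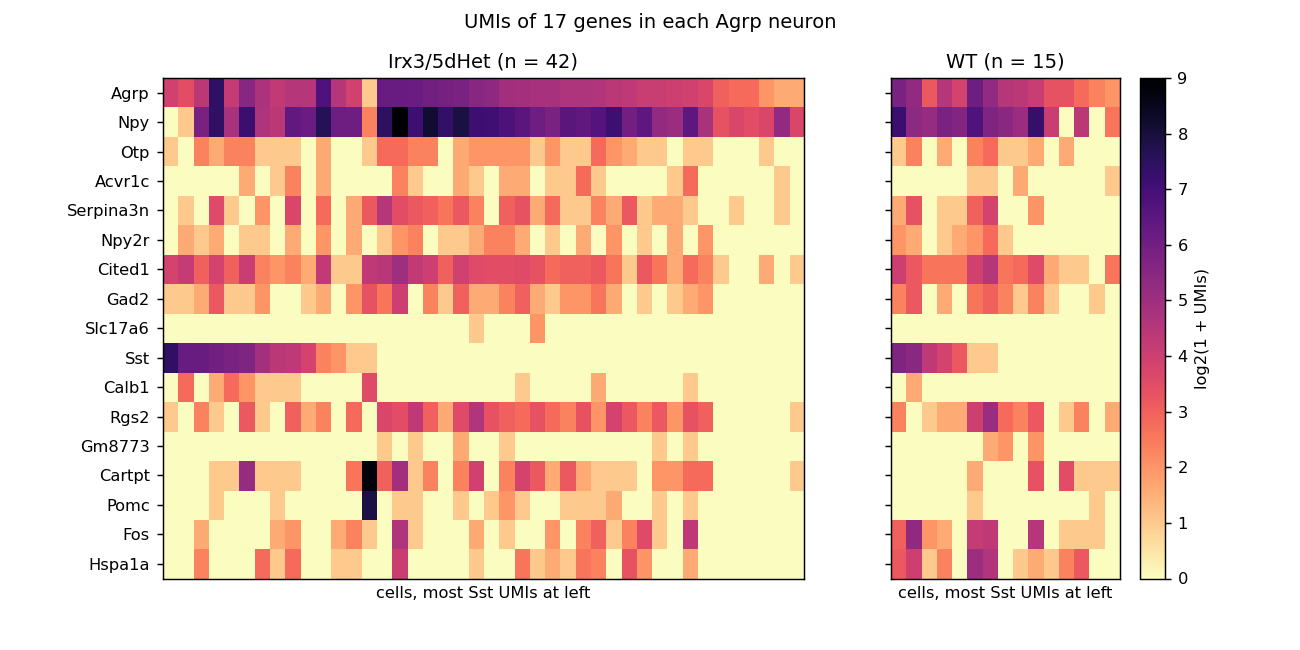
UMIs of 17 genes (rows, colour as log2 of 1 plus UMIs) in each Agrp neuron (columns), 42 Irx3/5dHet cells at left and 15 WT cells at right, ordered by Sst UMIs. Sst fills the leftmost columns of each panel, Rgs2 is darker to the right of them, Slc17a6 is found in 2 cells, and Pomc is dark in 1 Irx3/5dHet cell.

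Agrp neurons expressed the genes that make and load GABA and almost none of those for glutamate. Gad2, which makes GABA, had 102 UMIs in 30 Irx3/5dHet cells and 37 UMIs in 10 WT cells, log2 ratios over other neurons of -0.09 and 0.19. Slc32a1, the vesicular GABA transporter, had 22 and 6 UMIs (89.6 and 63.5 CPM), against 135 and 128 CPM. Slc17a6, the vesicular glutamate transporter of the hypothalamus, had 4 UMIs in 2 Irx3/5dHet cells and 0 in WT, against 180 and 198 CPM in other neurons. Its log2 ratio was -3.30 in Irx3/5dHet (-5.35 to -2.10), and it was at least 6.23-fold lower in WT. Of 6 GABA genes tested, none was 2-fold higher in both libraries and 1 was 2-fold lower, beside 1.46% and 5.95% of all genes.

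Receptor genes among the 15 highest genes included a receptor for the cells' own peptide. Npy2r, which binds neuropeptide Y and inhibits the neurons that carry it, had 48 UMIs in 23 Irx3/5dHet cells and 18 UMIs in 7 WT cells. It was at 196 CPM in Irx3/5dHet and 191 CPM in WT Agrp neurons, against 14.7 and 14.4 CPM in other neurons, log2 ratios of 3.72 (3.01 to 4.48) and 3.74 (2.80 to 4.61). Ghr, the growth hormone receptor, had 15 and 7 UMIs and ratios of 2.19 and 3.29. Calcr, the calcitonin receptor, which also takes part in the amylin receptor, had 12 and 6 UMIs and ratios of 2.13 and 2.78. Glra2, a glycine receptor subunit, had 10 and 5 UMIs and ratios of 2.85 and 2.42. The last 3 rest on 3 or 4 WT cells each. Mc3r, a melanocortin receptor, had 10 UMIs in Irx3/5dHet and 2 in WT, too few over the neurons of a library to be tested.

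Receptors of several circulating signals were close to the floor at this depth. Lepr, the leptin receptor, had 3 UMIs in Irx3/5dHet and 2 in WT, Ghsr, the ghrelin receptor, 1 and 3, and Insr, the insulin receptor, 2 and 1. Nuclear receptors were better covered: Thra, for thyroid hormone, had 61 and 12 UMIs, and Nr3c1, for glucocorticoids, 26 and 16. Of 22 hormone and peptide receptors tested, 3 were 2-fold higher in both libraries and 7 lower, beside 1.46% and 5.95% of all genes. With genes at 0 set to 3 UMIs, 1 was lower. The median log2 ratio was -0.73 in Irx3/5dHet and -0.99 in WT, and -0.56 and 0 at that bound.

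Downstream of leptin, growth hormone and insulin, coverage was also thin for most genes. Stat3, the transcription factor that leptin activates, had 28 UMIs in 21 Irx3/5dHet cells and 12 UMIs in 6 WT cells, log2 ratios over other neurons of 1.19 and 1.37. Socs2, a cytokine signal suppressor that growth hormone induces, had ratios of 2.04 and 1.43 on 17 and 5 UMIs. Cish, of the same family, had 4 UMIs in Irx3/5dHet and 5 in WT and was too sparse to be tested. Irs4, an insulin receptor substrate, had 55 and 24 UMIs, 224 and 254 CPM against 72.0 and 50.2 CPM in other neurons, ratios of 1.65 and 2.36. Of 23 genes of these pathways tested, 3 were 2-fold higher in both libraries and 1 lower, beside 1.46% and 5.95% of all genes. The median of the 23 was -0.23 in Irx3/5dHet and 0.20 in WT.

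Of transcription factors, Nr5a2, a nuclear receptor, had 13 UMIs in Irx3/5dHet and 6 in WT, 53.0 and 63.5 CPM, against 8.50 and 1.39 CPM in other neurons, log2 ratios of 2.65 and 5.40. Tbx3, which keeps arcuate peptide neurons in their state, had ratios of 0.83 and 1.40, and Bsx, an activator of Agrp and Npy in mice, 0.46 and 1.70 on 8 and 4 UMIs. Prox1, a homeobox factor, had ratios of 2.08 and 1.14, and Isl1, a factor of developing arcuate neurons, 0.04 and 0.70. Dlx1, a factor of many GABA neurons, had 0 UMIs and was at least 8.53-fold lower in Irx3/5dHet and at least 2.47-fold lower in WT. Of 30 such factors tested, without Nr5a2, 2 were 2-fold higher in both libraries and 14 lower, beside 1.46% and 5.95% of all genes. With genes at 0 set to 3 UMIs, 5 were lower. Cited1, a transcriptional coregulator that binds no DNA itself, had 345 UMIs in 39 Irx3/5dHet cells and 105 in 14 WT cells, 1405 and 1111 CPM against 276 and 130 CPM, ratios of 2.35 and 3.10.

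The rest of the 15 highest genes were of mixed kinds. Filip1, a filamin partner, led them with log2 ratios of 4.70 in Irx3/5dHet and 6.10 in WT on 23 and 13 UMIs, 7 of the WT ones in 1 cell. Arhgap6, a GTPase-activating protein, had 105 UMIs in 31 Irx3/5dHet cells and 50 in 11 WT cells, ratios of 1.88 and 2.06. Krt90, a keratin, had ratios of 3.58 and 3.63, and Cacng5, of the auxiliary subunits of AMPA receptors, 1.96 and 2.02. Ccdc160 had ratios of 1.89 and 2.84 and Fam159b 2.13 and 2.26. A list of 20 genes reported as enriched in Agrp neurons, taken from memory of published work, had 13 tested. Of these, 6 were 2-fold higher in both libraries and 2 lower, beside 1.46% and 5.95% of all genes. The medians of the 13 were 1.65 in Irx3/5dHet and 0.73 in WT. The list was chosen with earlier results of these data known and holds Npy2r and Calcr, named above by rank. Its counts are thus a description and no separate check.

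Genes of the secretory route did not move as a block. Pcsk1n, the precursor of a convertase inhibitor, was at 6382 CPM in Irx3/5dHet and 6043 CPM in WT Agrp neurons, against 2491 and 2392 CPM in other neurons, ratios of 1.36 and 1.34. Chga, the granule protein chromogranin A, was at 265 and 180 CPM, against 1088 and 1680 CPM, ratios of -2.03 and -3.18. Of 16 genes of peptide processing tested, 1 was 2-fold higher in both libraries and 2 lower, beside 1.46% and 5.95% of all genes. The imprinted noncoding RNA Meg3 was at 2660 CPM in Irx3/5dHet and 1164 CPM in WT Agrp neurons, against 6756 and 7589 CPM in other neurons, ratios of -1.34 and -2.70.

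The lowest genes included markers of glia and of other neurons. Apoe, the lipid carrier of astrocytes, had ratios of -2.74 in Irx3/5dHet and -2.92 in WT. When cells with 2 or more markers of another cell type were left out of all groups, the ratio nearer 0 was -0.69 for Apoe and -0.51 for Chga. Both genes are among the markers that left cells out, Apoe for astrocytes and tanycytes and Chga for the pars tuberalis. A ratio nearer 0 is thus partly built into that setting. Nnat, an imprinted membrane protein, had ratios of -2.17 and -2.77. Vsnl1, a calcium sensor, had -1.76 and -1.91, Plcb4, a phospholipase C, -1.41 and -1.79, and Nova1, a splicing factor, -1.97 and -2.08 on 6 and 2 UMIs. Nova1 turned round when cells were thinned to 1000 UMIs, where the ratio nearer 0 was 0.66 with an interval from -2.72 to 2.25.

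Between genotypes, 3449 genes had at least 20 UMIs over the Agrp neurons of both libraries. At least 2-fold higher in Irx3/5dHet were 251 (7.28%) and at least 2-fold lower were 287 (8.32%), around a median log2 ratio of 0.01. In other neurons, where far more UMIs stand behind each gene, the same 3449 genes gave 44 higher and 121 lower. Pseudogenes made up 110 of the 287 lower genes, 31.3% of the 351 tested, and 26.5% of the same 351 were lower in other neurons. They took 8.59% of UMIs in Irx3/5dHet and 13.5% in WT Agrp neurons, and 6.51% and 9.63% in other neurons. Without pseudogenes and mitochondrial genes, 237 were higher and 177 lower, and the interval left out 0 for 129 and 120 of them. Of the 237, 20 were also 2-fold higher in other neurons, and of the 177, 18 were also 2-fold lower there, where 34 and 28 of all 3089 such genes were. The opposite sign was found there for 66 of each. The median log2 ratio of all 3089 genes in other neurons was 0.10, but their split by sign was not counted. The share of all 3089 with an interval that leaves out 0 was not counted either. The 66, 129 and 120 are thus a description and no result about the called genes. Without the richest cell of each gene in each library, 236 of the 237 kept their 2-fold ratio and 103 of the 177 did. That step kept the full totals and took a larger share of the WT cells than of the Irx3/5dHet cells, which tends to raise the ratios. Both counts are thus partly set by the step itself and cannot show how far the ratios rest on single cells.

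Among peptide genes, Pomc had the highest ratio of Irx3/5dHet over WT, and 1 cell carried most of it. It had 249 UMIs in Irx3/5dHet (1014 CPM) and 2 in WT (21.2 CPM), a log2 ratio of 5.26 (3.71 to 8.64). Without the Pomc-rich cell and with families merged it was 1.78. Cartpt had 612 UMIs in 28 Irx3/5dHet cells and 24 UMIs in 6 WT cells, 2493 and 254 CPM, a ratio of 3.27 (2.71 to 3.95) that came to 1.13 under the same conditions. In other neurons the Cartpt ratio was 1.11 and the Pomc ratio 0.65. Sst had a ratio of 0.69 (0.42 to 0.97) in Agrp neurons and -0.41 in other neurons. The Sst value was 0.14 over the barcodes that the authors kept in their merged table.

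Several of the other top genes were also higher in Irx3/5dHet other neurons. Rpl26 and Rps7, ribosomal proteins with many near-identical pseudogenes, had ratios of 3.36 and 2.81 in Agrp neurons and 1.25 and 2.25 in other neurons. Cxx1c, at 47 UMIs in Irx3/5dHet and 1 in WT, had ratios of 3.61 (1.63 to 9.51) and 2.63, Atp5l, a subunit of ATP synthase, 2.90 and 1.87, and Rps23, another ribosomal protein, 2.58 and 1.49. Genes with such copies are uncertain, because the sources used here do not say how reads that match several places were counted. Others had no such ratio in other neurons. Gmpr, an enzyme of purine metabolism, and 2610203C20Rik each had 22 UMIs in Irx3/5dHet and 0 in WT, at least 2.82-fold higher with 3 UMIs set in WT. Uba6, which activates ubiquitin, had 20 and 0 UMIs, at least 2.57-fold higher. The log2 ratios of these 3 genes in other neurons were 0.13, -0.32 and 0.24. Vps4a, which takes part in endosomal sorting, had 27 UMIs in Irx3/5dHet and 1 in WT, a ratio of 2.82 (0.78 to 8.73), and Cdc42bpa, a kinase of the cytoskeleton, 23 and 1 UMIs, a ratio of 2.59 (0.52 to 8.51).

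Among the 12 lowest genes the pattern was mixed in the same way. Sez6, a membrane protein of dendrites, had 14 UMIs in Irx3/5dHet (57.0 CPM) and 54 in WT (572 CPM), a log2 ratio of -3.29 (-4.29 to -2.46) in Agrp neurons and -2.39 in other neurons. Vps8, of endosomal sorting, had ratios of -2.87 and -1.84, and the unannotated AC159139.1, AL591207.1 and AC158354.2 had -2.74, -2.73 and -2.26 in Agrp neurons and -2.56, -2.26 and -1.43 in other neurons. Gm10073, a ribosomal protein copy, had -2.23 and -1.70. The pair of small GTPase genes Gem and Rrad, which restrain calcium channels, differed little in other neurons. Rrad had 24 UMIs in 11 Irx3/5dHet cells and 49 UMIs in 7 WT cells, a ratio of -2.39 (-3.18 to -1.67) in Agrp neurons and 0.34 in other neurons. The WT cells of 17968 and 16856 UMIs held 17 and 9 of the 49. Gem had 3 UMIs in Irx3/5dHet and 17 in WT, a ratio of -3.70 (-6.29 to -2.09) and -0.36 in other neurons. Rere, a corepressor, Hdac1, a histone deacetylase, Dbi, which binds acyl-CoA, and Trim46, of the axon's initial segment, had ratios between -2.26 and -2.23 in Agrp neurons, and -0.15, -0.83, -0.82 and 0.50 in other neurons. Whether the ratios in Agrp and other neurons differ was not tested.

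**Figure D4:**
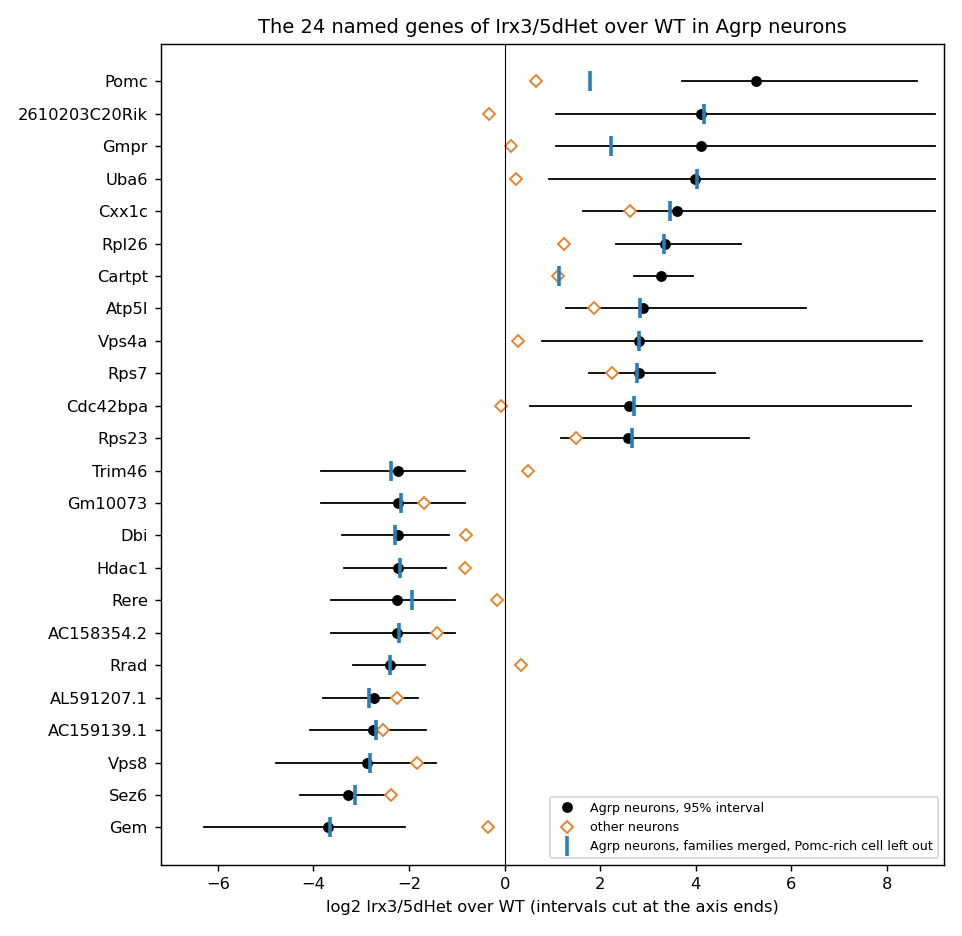
Log2 ratio of Irx3/5dHet over WT for the 12 highest and 12 lowest genes by rank in Agrp neurons (black, with 95% intervals for counting error), in other neurons (open orange) and in Agrp neurons with barcode families merged and the Pomc-rich cell left out (blue bar). Pomc and Cartpt come down to 1.78 and 1.13 at the blue bars, and the ribosomal genes and Sez6 lie on the same side of 0 in other neurons.

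Immediate early genes, which neurons switch on within minutes of activity or of dissociation, were lower in Irx3/5dHet Agrp neurons, except that of the 4 recomputed with cells thinned to 1000 UMIs, Fos was at -0.04 and Junb at 0.49, while Jun and Egr1 were at -1.25 and -0.47, and that Jund passes 0 when the -0.09 shift of median scaling is taken off. Of 8 tested, 6 were at least 2-fold lower, as were 8.32% of all genes, and all 8 were below 0. The 8 had a median log2 ratio of -1.18, against 0.01 for all genes. Fos had 92 UMIs in 18 of 42 Irx3/5dHet cells (375 CPM) and 112 UMIs in 10 of 15 WT cells (1185 CPM), a ratio of -1.66 (-2.08 to -1.25). Over thinned cells Fos was found in 30.6% of 36 Irx3/5dHet and 28.6% of 14 WT cells. Fosb, Jun, Junb and Egr1 had ratios of -1.78, -1.09, -1.33 and -1.25, and Jund -0.07. The same 8 genes had a median of -0.65 in other neurons. Summed over 24 such genes, single Irx3/5dHet Agrp neurons ran from 0 through a median of 999 to 11691 CPM and WT ones from 0 through 3005 to 8800 CPM, so the libraries overlap.

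Among heat shock genes, Hspa1a, the inducible Hsp70, had 68 UMIs in Irx3/5dHet (277 CPM) and 99 in WT (1048 CPM), a log2 ratio of -1.92 (-2.39 to -1.46), and Dnajb1, its partner, 66 and 84 UMIs, a ratio of -1.72 (-2.21 to -1.24). In other neurons the ratios were -0.91 and -0.39. Hsp90aa1, the inducible form of Hsp90, was at 3841 CPM in Irx3/5dHet and 2529 CPM in WT, a ratio of 0.60 (0.40 to 0.81), and Hspa8, the constitutive Hsp70, had 42 and 5 UMIs, a ratio of 1.57 (0.36 to 3.39), against 0.47 and 1.30 in other neurons. Of 11 tested, 1 was 2-fold higher and 2 were 2-fold lower, beside 7.28% and 8.32% of all genes, with a median of 0.09. Over thinned cells Hspa1a was found in 16.7% of Irx3/5dHet and 42.9% of WT Agrp neurons. The deepest WT cells, of 17968 and 16856 UMIs, held 32 and 23 of the 99 WT Hspa1a UMIs.

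No gene of peptide processing reached a 2-fold difference between genotypes. Of 13 tested, 12 had ratios above 0, as had 50.9% of all genes, with a median of 0.38 in Agrp neurons and 0.09 in other neurons. Scg3, a granule protein, was at 395 CPM in Irx3/5dHet and 222 CPM in WT, a ratio of 0.80 (0.14 to 1.59), and Pam, which amidates peptides, at 485 and 318 CPM, a ratio of 0.59 (0.02 to 1.24). Resp18, a protein of the secretory route, was at 4713 CPM (1157 UMIs) and 2762 CPM (261 UMIs), a ratio of 0.77 (0.58 to 0.97), against 0.25 in other neurons. Of 11 chaperones of the endoplasmic reticulum and genes of its stress response, 9 were above 0 with a median of 0.33, against 0.03 in other neurons. Of these, Manf, a secreted stress protein, was at 285 and 159 CPM, a ratio of 0.81 (0.03 to 1.76). Meg3 had 653 UMIs in Irx3/5dHet and 110 in WT, a ratio of 1.19 with a lower bound of 0.90, against -0.17 in other neurons.

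**Figure D5:**
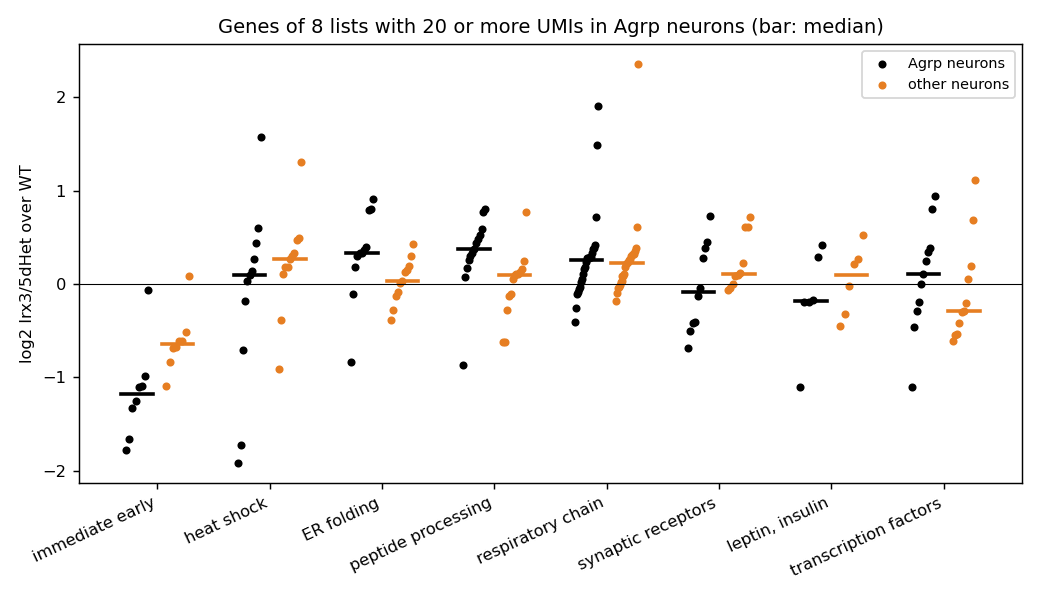
Log2 ratio of Irx3/5dHet over WT (y) for each gene with at least 20 UMIs in Agrp neurons, in 8 gene lists (x), in Agrp neurons (black) and other neurons (orange), with bars at the medians. The immediate early genes lie below 0 in Agrp neurons with a median of -1.18 (in thinned cells Fos was at -0.04 and Junb at 0.49, and Jund passes 0 with median scaling), and peptide-processing genes have a median of 0.38.

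Of the marker genes, Otp had a ratio of 0.34 (-0.32 to 1.11), Npy2r 0.01 (-0.77 to 0.91) and Cited1 0.33 (0.02 to 0.67). Serpina3n had 0.72 (0.21 to 1.30) and Acvr1c 1.43 (0.20 to 3.25), the second on 5 WT UMIs. Stat3 had -0.19 (-1.18 to 0.96), Irs4 -0.20 (-0.90 to 0.58), and Thra, a thyroid hormone receptor, 0.92 with a lower bound of 0.06. The intervals of Otp, Npy2r, Stat3 and Irs4 include 0. Of 5 hormone and peptide receptors tested, 1 was 2-fold higher and none was 2-fold lower. Of 6 leptin and insulin pathway genes tested, none was 2-fold higher and 1 was 2-fold lower. Over all genes between genotypes, 7.28% were 2-fold higher and 8.32% were 2-fold lower. Gad1, the other GABA-making enzyme, had 31 UMIs in Irx3/5dHet and 23 in WT, a ratio of -0.95 (-1.77 to -0.10), against 0.24 in other neurons, while Gad2 had 0.07 (-0.47 to 0.67). Of 24 nuclear genes of the respiratory chain, 18 were above 0 with a median of 0.26, against 0.22 in other neurons.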

How the data were processed

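Drop-seq UMI counts per gene and barcode were deposited by the authors, 1 table for each pooled library, and were not normalized. A merged table of both libraries, which the authors deposited as natural log values, served only as another set of barcodes. Seurat 3, STAR 2.6.0b, Picard, bcl2fastq and the mouse build mm10 are listed in the submitters' processing notes, without their settings. Of 29809 gene symbols, 27805 (93.3%) matched GENCODE's GRCm38 annotation, which gave the pseudogenes. UMIs were summed over cells and divided by the library's sum over the same cells (CPM). Log2 ratios had 0.5 UMI added to each sum. Intervals are exact 95% Poisson, Clopper-Pearson or conditional binomial ones and cover counting error only. With 1 library per genotype no test was run, and called means at least 2-fold. Bounds set a group at 0 to 3 UMIs.

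Genes named by rank had 15 higher and 10 lower places over other neurons, by the ratio nearer 0 of both libraries with detection in at least 20% of the cells of the higher group, and 12 places in each direction between genotypes, with at least 20 UMIs and the same sign by the mean over cells. Agrp, Npy, the neuron genes of the rule, mitochondrial genes and pseudogenes were left out. Members, lists and rules were chosen with earlier results of these data known. Genes on the lists are also named, and 2 genes that the rank rule takes are not reported here. No doublet caller was run, and markers of other cell types were counted instead. The calculation was tested on simulated data. Alternatives were other limits on cells and genes, other scaling, thinning, merged barcodes and left-out cells. Python 3.11.15, numpy 2.4.6, scipy 1.17.1, pandas 2.3.3 and matplotlib 3.10.9 were used.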

Additional observations from a re-analysis of the deposited data

Results flagged for a closer look

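In data outside the comparisons, 4 Irx3/5dHet cells and 0 WT cells met the Agrp and Npy limits but held 1 neuron gene in place of at least 2. They had 387, 393, 558 and 2387 UMIs, of which 7, 3, 12 and 14 were Agrp and 11, 10, 15 and 12 were Npy. The first 3 belong to families of near-identical barcodes. Whether they are Agrp neurons was not tested.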

How the results depend on the processing

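The share of Agrp neurons stayed inside its interval under every alternative run, from 5.28% to 6.91% of neurons in Irx3/5dHet and from 1.43% to 2.15% in WT. Counts of genes moved more. The 148 genes higher over other neurons became 98 with median-of-ratios scaling, 2954 with no minimum of UMIs, 55 at 50 or more UMIs and 36 without the richest cell of each gene. The 601 lower became 186 in thinned cells, 1410 by the mean over cells, 297 at 50 or more UMIs and 1814 without the richest cells. The 251 higher in Irx3/5dHet became 34 thinned, 476 by the mean over cells, 1827 with no minimum, 60 at 50 or more UMIs and 591 without the richest cells. The 287 lower became 27 thinned, 4170 with no minimum, 68 at 50 or more UMIs and 189 without the richest cells. Leaving out the richest cells took UMIs from Agrp neurons only and kept the full totals, which lowers their ratios over other neurons. Between genotypes it took 1 of 42 Irx3/5dHet and 1 of 15 WT cells per gene, which tends to raise the ratios. The counts without the richest cells are therefore partly set by that alternative itself. Thinning left 34 and 13 Agrp neurons, and 416 genes tested between genotypes. Nova1 over other neurons turned to 0.66 and Junb between genotypes to 0.49 in thinned cells; the cause was not tested. Of the 25 genes named over other neurons, 24 kept their sign under every alternative, as did 41 of 46 genes followed between genotypes. The exceptions between genotypes were Junb and, with ratios near 0, Gad2, Irs4, Npy2r and Stat3. The 25 genes, and those of the 46 named by rank, were chosen for the size of their ratios in these same data. That most kept their sign is thus partly set by the choice and cannot show how stable the ratios are. No paired analysis was possible because each genotype is 1 pooled library. With 94487 UMIs in 15 WT cells, a gene under 31.8 CPM cannot be told from none.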

Other observations

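The Agrp neurons with 3 or more Sst UMIs differed from the rest in a few other genes at that limit. Rgs2 did so in the same direction in both libraries, Gm8773 too but on few UMIs, and Calb1 was too sparse in WT to give a direction. Rgs2, which dampens signalling by G proteins, was at 403 CPM in 12 Irx3/5dHet cells with 3 or more Sst UMIs, against 1113 CPM in the other 30, and at 296 CPM in 5 WT cells, against 1139 CPM in the other 10. Gm8773 had 0 UMIs in cells with 3 or more Sst UMIs and 7 in the rest in Irx3/5dHet, and 0 and 8 in WT. Calb1, the calcium buffer calbindin, was at 288 CPM against 85.2 CPM in Irx3/5dHet, with 2 and 0 UMIs in WT, the 2 in 1 cell. With barcode families merged and the Pomc-rich cell left out, the 5 WT cells are 4, Calb1 had 20 UMIs against 6 in Irx3/5dHet, and Rgs2 was at 403 CPM against 1173 CPM in Irx3/5dHet and at 296 CPM against 1114 CPM in WT. Agrp was at 7024 CPM against 4596 CPM in Irx3/5dHet and at 4472 CPM against 3012 CPM in WT, while Otp was at 288 and 324 CPM in Irx3/5dHet and at 230 and 250 CPM in WT. Npy had no common direction, with 12407 CPM against 16973 CPM in Irx3/5dHet and 10687 CPM against 6664 CPM in WT. The cells were split by Sst and the genes were chosen after their values were seen, so this is a description. Median depth was 6367.5 UMIs against 5631 UMIs in Irx3/5dHet and 3502 UMIs against 3658.5 UMIs in WT. Cells with any Sst were also taken, with families merged and the Pomc-rich cell left out. The 6 such WT cells held 57 of the 82 Rgs2 UMIs of WT (874 CPM), and 2 Gm8773 UMIs. A single WT cell with 1 Sst UMI held 33 of these Rgs2 UMIs. The WT difference in Rgs2 thus rests on the limit of 3 Sst UMIs.

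Among the cells with the most Sst, Npy varied. In Irx3/5dHet, the 4 richest had 173, 72, 71 and 63 Sst UMIs with 0, 1, 57 and 173 Npy UMIs. In WT, the 2 richest had 52 and 43 Sst UMIs with 145 and 41 Npy UMIs. Both WT cells with 0 Npy UMIs came from 1 family of near-identical barcodes and count as 1 cell once merged.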
